A study of Mus musculus with 6 samples.

Results

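The genes described here are 10 that carry the liver's response to growth hormone (GH) and its output of insulin-like growth factor 1 (IGF1) and IGF-binding proteins, chosen by symbol from the 23282 genes of the deposited table. They are Ghr, Stat5b, Socs2, Cish, Igf1, Igfals, Igfbp1, Igfbp2, Igfbp3 and Igfbp4. RNA came from primary hepatocytes, the parenchymal cells of the liver, isolated from C57BL/6N mice by collagenase perfusion and cultured in complete M199 medium. After a change of medium, 3 cultures received no treatment (control) and 3 received IL-1β recombinant protein for 24 h, and nothing else is given that separates the groups. The submitters' design text states 2 samples a group but names 3, and all 3 columns of each group entered the tests. Both groups share the genotype and the isolation, and the labels name no GH treatment, no age or sex of the mice, and not whether replicates came from separate mice, so p-values measure only the spread between these samples, which may be technical. IL-1β is a cytokine that macrophages release in inflammation, and the study asks what it changes in hepatocyte transcription.

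GH binds its receptor, GHR, on hepatocytes, and the kinase JAK2 bound to the receptor then phosphorylates the transcription factor STAT5B, which enters the nucleus and drives Igf1, Igfals, Socs2 and Cish. SOCS2 and CISH feed back on the receptor. Hepatocytes are the main source of circulating IGF1, most of which travels in a complex with IGFBP3 and the acid-labile subunit encoded by Igfals, while IGFBP1 is a short-lived binding protein that insulin represses through FOXO1.

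The libraries were made by QuantSeq, which reads the 3′ end of polyadenylated RNA, and the raw counts per gene were analysed. Total counts ranged from 9538741 to 11105408 per library. At these depths 3 counts, taken as the floor, equal 0.269 to 0.321 CPM, counts scaled by the TMM method to a common library total, which is a limit that covers counting error only. Of 11657 genes with enough counts to be tested by edgeR's quasi-likelihood test, 13.4% had a Benjamini-Hochberg adjusted p below 0.05, 6.97% higher and 6.44% lower after IL-1β, and over all genes tested the log2 fold change had a median of -0.00184. Of the genes called, 52.0% were higher, against 39.6% with total-count scaling. With 3 samples a group, 0.1 is the lowest two-sided p that exact permutation can reach. Of 9 hepatocyte markers in the table, 9 were tested, 7 fell and 0 rose, with a median log2 fold change of -0.36, and their summed level was 20930 to 21140 CPM in control and 17290 to 18190 CPM after IL-1β. In bulk RNA, fewer hepatocytes and less of a transcript per hepatocyte cannot be told apart. Folds compare each member with itself across samples. Where counts of several members are summed or set in a ratio, these are counts of 3′ tags, not corrected for length, and the comparison is of that sum or ratio between the groups.

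Of the 10 members, 9 had enough counts to be tested. Igfbp1, Igfbp4, Igf1 and Ghr fell, Cish rose, and Stat5b, Socs2, Igfals and Igfbp2 did not pass an adjusted p of 0.05. Thus 4 members were lower and 1 higher, against 6.44% and 6.97% of all genes tested. In 6 members every IL-1β sample lay below every control sample, and in 0 above, against 14.2% and 14% of all genes tested. The 4 decreases kept an adjusted p below 0.05 under every alternative tried, whereas the call of Cish did not.

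**Figure D1:**
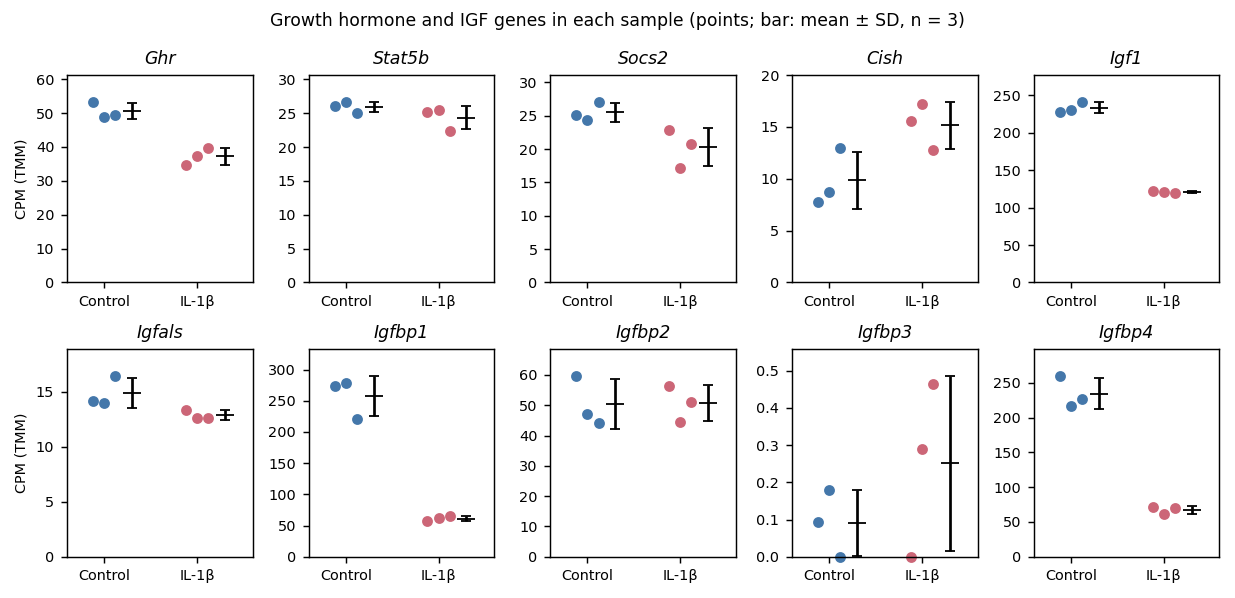
TMM-scaled CPM of each member (y axes, each panel with its own linear scale from 0) in the 3 control and 3 IL-1β samples (x axes), as points, with the mean and SD beside them. The IL-1β points of Igf1, Igfbp1 and Igfbp4 lie far below the control points, those of Stat5b and Igfbp2 overlap with control, and Igfbp3 stays under 0.5 CPM in all samples.

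Ghr encodes the GH receptor and lies on the minus strand of chromosome 15 (GRCm38, 3317755 to 3583352). Its level was 53.4, 48.9 and 49.5 CPM in the control samples and 34.7, 37.3 and 39.8 CPM after IL-1β. Every treated sample was below every control, and the receptor transcript fell to 73.8% of control, a log2 fold change of -0.44 (standard error 0.10, edgeR adjusted p = 0.0031). Group means were 50.6 ± 2.44 CPM and 37.3 ± 2.52 CPM (SD, n = 3 per group).

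Stat5b, the transcription factor downstream of the receptor, lies on the minus strand of chromosome 11 (100780731 to 100850585). It was measured at 26.1, 26.6 and 25.1 CPM in control and 25.1, 25.5 and 22.4 CPM after IL-1β. The groups overlapped, and the log2 fold change was -0.09, with a 95% interval of -0.33 to 0.144 and an edgeR adjusted p of 0.72. The fitted change of Ghr, -0.44, lies outside that interval, but the 95% interval of Ghr, -0.635 to -0.243, overlaps it. Overlap of intervals is not a test of a difference, and whether the changes of Ghr and Stat5b differ was not tested.

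Socs2 and Cish encode SH2-domain proteins of the SOCS family that are transcribed in response to STAT5 and inhibit GH receptor signalling. Socs2, on the minus strand of chromosome 10 (95411490 to 95416857), stood at 25.1, 24.3 and 27.1 CPM in control and 22.9, 17.2 and 20.7 CPM after IL-1β. Although the groups did not overlap, the log2 fold change of -0.33 (standard error 0.13) did not pass the test after adjustment (edgeR adjusted p = 0.11).

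Cish, on the plus strand of chromosome 9 (107296689 to 107301961), was counted at 7.80, 8.77 and 13 CPM in control and 15.6, 17.2 and 12.7 CPM after IL-1β. Control replicate 3 was above IL-1β replicate 3, so the groups overlapped in that pair of samples. The log2 fold change was 0.63 (standard error 0.20, edgeR adjusted p = 0.032), the only increase among the members that passed. The adjusted p was 0.0504 with total-count scaling and 0.0656 with DESeq2, and it was 0.101 and 0.118 with control replicates 1 and 2 left out in turn, and 0.1 and 0.169 with IL-1β replicates 1 and 2 left out in turn. Without control replicate 3 the log2 fold change was 0.87 (adjusted p = 0.0044). The non-coding gene Gm17041 is annotated in antisense over the last 1000 bases of Cish, and whether counting used strand is not given in the sources used here, so reads of the pair cannot be told apart.

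Both feedback genes are known to respond to STAT5, whose activity was not measured here, and their ratio within a sample does not depend on scaling. Reads of Gm17041 could enter the Cish side of that ratio. The log2 ratio of Cish to Socs2 was -1.69, -1.47 and -1.06 in control and -0.55, 0.00 and -0.70 after IL-1β. All treated samples were above all controls, by 0.99 on the log2 scale (two-sided exact permutation p = 0.1, the lowest that can be reached). This was 1 of 9 such sums, shares and ratios computed, of which 8 were chosen after the values were seen. Adjusted over the 9, each p of 0.1 became 0.1125.

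The promoter windows of 4 members are shown because the members differ in what became of them: Cish rose, Igfals did not pass, and Igfbp1 and Igfbp4 fell. Each runs from 250 bases before to 50 bases after a RefSeq transcript start (GRCm38.p6), 5′ to 3′ on the gene's strand, and 9 of the 10 members had such an entry (Socs2 had none). Capitals mark matches on either strand to the STAT motif TTCNNNGAA or the FOXO motif CAAAACA, which did not overlap each other.
Cish, plus strand, chr9:107296409-107296708: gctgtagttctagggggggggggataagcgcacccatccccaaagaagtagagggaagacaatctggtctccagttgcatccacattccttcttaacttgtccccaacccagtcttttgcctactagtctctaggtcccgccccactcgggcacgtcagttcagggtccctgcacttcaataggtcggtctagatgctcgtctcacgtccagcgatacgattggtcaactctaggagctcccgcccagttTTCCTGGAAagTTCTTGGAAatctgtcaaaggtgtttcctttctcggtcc
Igfals, plus strand, chr17:24877981-24878280: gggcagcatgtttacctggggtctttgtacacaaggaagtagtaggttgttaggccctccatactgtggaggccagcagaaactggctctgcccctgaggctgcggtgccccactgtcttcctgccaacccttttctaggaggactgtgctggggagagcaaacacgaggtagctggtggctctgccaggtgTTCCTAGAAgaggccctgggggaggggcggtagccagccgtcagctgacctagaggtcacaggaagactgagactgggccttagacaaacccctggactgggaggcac
Igfbp1, plus strand, chr11:7197537-7197836: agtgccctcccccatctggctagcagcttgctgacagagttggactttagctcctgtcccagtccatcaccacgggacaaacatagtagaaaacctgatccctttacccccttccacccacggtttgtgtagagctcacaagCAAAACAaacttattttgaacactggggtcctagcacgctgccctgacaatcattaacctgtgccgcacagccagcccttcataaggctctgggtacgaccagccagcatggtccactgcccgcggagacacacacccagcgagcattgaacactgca
Igfbp4, plus strand, chr11:99040994-99041293: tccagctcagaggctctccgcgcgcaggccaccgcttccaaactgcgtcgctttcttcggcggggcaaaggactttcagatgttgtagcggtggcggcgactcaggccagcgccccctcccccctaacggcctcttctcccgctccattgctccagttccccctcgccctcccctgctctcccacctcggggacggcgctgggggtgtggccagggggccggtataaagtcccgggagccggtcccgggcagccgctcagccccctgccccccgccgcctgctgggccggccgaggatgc

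The STAT motif occurred in 8.3% of 32851 promoter windows and in 3 of the 14 windows of the members. In Cish there were 2 matches, which began at positions 1 and 12 after the start. In Igfals, 2 of its 3 annotated windows held 1 match each, 236 and 58 bases before the start, and the latter is printed above. The FOXO motif occurred in 6.28% of all windows and, among the members, in that of Igfbp1, 108 bases before the start. These matches describe letters in short windows, not binding. The printed genes include every member with a match. The windows of Igf1 and Ghr, which also fell, held no match to either motif and are not printed.

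Igf1 encodes the growth factor itself and lies on the plus strand of chromosome 10 (87859056 to 87937047). Its level was 227, 231 and 241 CPM in control and 123, 121 and 120 CPM after IL-1β, on 1148 or more counts in each library. The coefficient of variation among the treated samples was 1.14%, against 3.2% in control, so the groups were far apart relative to their spread. The means were 233 ± 7.45 CPM and 121 ± 1.38 CPM (SD, n = 3 per group), a decrease of 48.0% (log2 fold change -0.94, standard error 0.068, edgeR adjusted p = 9.8e-11).

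The ratio of Igf1 to its receptor-side regulator Ghr was also compared within samples. The log2 ratio of Igf1 to Ghr was 2.09, 2.24 and 2.29 in control and 1.82, 1.70 and 1.59 after IL-1β, lower in all treated samples by a mean of 0.50 (exact permutation test, two-sided p = 0.1). As a description, the genes whose log2 CPM followed Igf1 most closely over the 6 samples were C8a, a component of complement (Pearson r = 0.9981, log2 fold change -0.80), the receptor phosphatase gene Ptprk (0.9973, -0.97) and Ubd, which encodes the ubiquitin-like protein FAT10 (0.9971, -1.28). With 6 samples in 2 groups, such correlations mostly reflect the difference between the groups.

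Igfals, on the plus strand of chromosome 17 (24878770 to 24882008), encodes the acid-labile subunit that prolongs the life of IGF1 in blood. It was found at 14.2, 14 and 16.4 CPM in control and 13.4, 12.6 and 12.6 CPM after IL-1β. The treated samples were all lower, by a margin smaller than the spread of the controls, and the log2 fold change of -0.21 (95% interval -0.519 to 0.105) did not pass (edgeR adjusted p = 0.49). The log2 ratio of Igf1 to Igfals went from 3.98 ± 0.087 to 3.24 ± 0.033 (SD, n = 3 per group) without overlap (exact permutation test, two-sided p = 0.1).

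Igfbp1 encodes a binding protein that holds IGF1 away from its receptor and is controlled by insulin and fasting. It lies on the plus strand of chromosome 11 (7197787 to 7202546). Control samples held 274, 278 and 220 CPM, and IL-1β samples 56.9, 61.7 and 65.3 CPM, or 532 to 702 counts. This was the largest decrease among the members, to 23.8% of control (log2 fold change -2.07, standard error 0.089, edgeR adjusted p = 5.0e-15), and it ranked 23 among the decreases of all 11657 genes. Group means were 257 ± 32.4 CPM and 61.3 ± 4.21 CPM (SD, n = 3 per group).

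The closest followers of Igfbp1 over the 6 samples were Ahsg, which encodes the plasma protein fetuin-A (Pearson r = 0.9991, log2 fold change -1.39), the lipid droplet enzyme gene Hsd17b13 (0.9976, -1.11) and Tstd1 (0.9976, -1.44). These too are described over the same 6 samples in 2 groups.

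Igfbp4 encodes a binding protein that liver and many other tissues secrete and that generally restrains IGF action. It lies on the plus strand of chromosome 11 (99041260 to 99052643). Its level was 260, 217 and 227 CPM in control and 71.0, 61.4 and 69.9 CPM after IL-1β. It fell to 28.8% of control (log2 fold change -1.80, standard error 0.083, edgeR adjusted p = 1.7e-14), with rank 39 among all decreases. The log2 ratio of Igfbp1 to Igfbp4 was 0.13 ± 0.21 in control and -0.14 ± 0.17 after IL-1β (SD, n = 3 per group), and the groups overlapped (exact permutation test, two-sided p = 0.2). The fitted 95% intervals were -2.24 to -1.9 for Igfbp1 and -1.96 to -1.63 for Igfbp4, and they overlapped narrowly. Overlap of intervals is not a test of a difference. The permutation test could not have passed 0.05 at this size, so whether these decreases differ is not settled.

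Igfbp2, on the plus strand of chromosome 1 (72824480 to 72852471), encodes a binding protein that is abundant in fetal liver and rises in fasting. It was at 59.7, 47.3 and 44.2 CPM in control and 56.4, 44.5 and 51.2 CPM after IL-1β. The samples interleaved, and the log2 fold change was 0.01 with a 95% interval of -0.215 to 0.23 (edgeR adjusted p = 0.98), its sign changing with the scaling. The interval leaves out changes of the size seen in Igfbp1 and Igfbp4.

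Igfbp3 encodes the main IGF carrier of plasma, which in liver is made largely by non-parenchymal cells. It lies on the minus strand of chromosome 11 (7206091 to 7213923), close beyond the end of Igfbp1 and pointing towards it. The libraries held 1, 2 and 0 counts in control and 0, 3 and 5 counts after IL-1β, mostly at or under the floor of 3 counts. It was too low to be tested, and no fold change is given.

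Summed over Igfbp1 to Igfbp4, binding protein transcripts were 594, 542 and 491 CPM in control and 184, 168 and 187 CPM after IL-1β. The pool was lower in every treated sample, at 0.331 times the control mean (exact permutation test, two-sided p = 0.1). Within the pool Igfbp1 went from 47.4% ± 3.41 to 34.2% ± 3.02, Igfbp4 from 43.3% ± 3.13 to 37.5% ± 0.972 and Igfbp2 from 9.26% ± 0.699 to 28.2% ± 2.17 (SD, n = 3 per group). The share of Igfbp2 was thus higher in all treated samples at a nearly level CPM. The number of Igf1 counts per 100 binding protein counts was 38.2, 42.6 and 49.2 in control and 66.6, 71.9 and 64.3 after IL-1β, 1.56 times higher on average and without overlap (exact permutation test, two-sided p = 0.1).

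**Figure D2:**
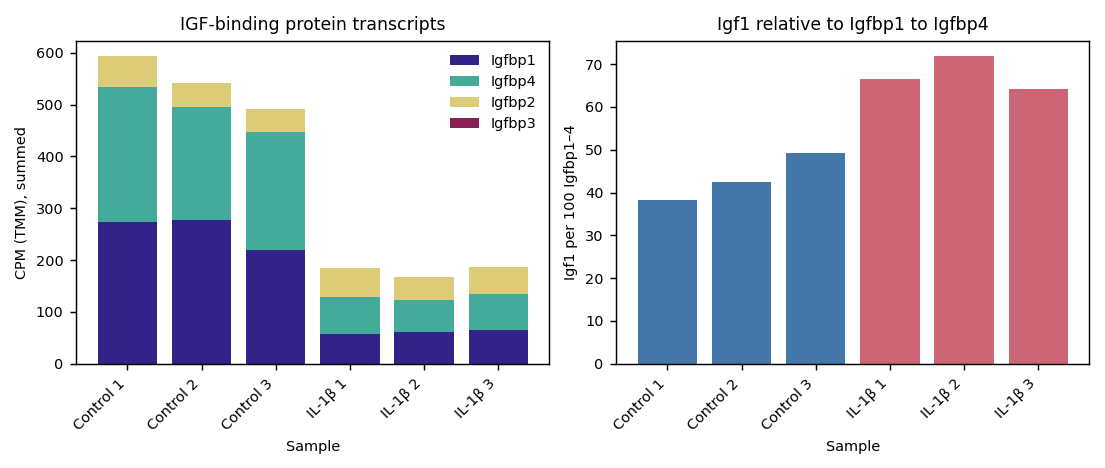
Left, TMM-scaled CPM of the binding protein genes stacked for each of the 6 samples (y axis from 0; Igfbp3 is too low to be seen); right, Igf1 counts per 100 summed Igfbp1 to Igfbp4 counts in the same samples. The stacks reach 491 to 594 CPM in control and 168 to 187 CPM after IL-1β, while the ratio on the right is higher in each IL-1β sample.

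Among other genes of GH receptor signalling, Socs3, Socs1, Ptpn2, Adam17 and Stat3 rose. Of 21 such genes, all tested, 5 rose, 0 fell and 16 did not pass, beside 6.97% higher and 6.44% lower of all genes tested. Their median log2 fold change was 0.112, beside -0.00184 for all genes tested. Socs3, a feedback inhibitor of cytokine and GH receptors, was at 17, 18.3 and 21.3 CPM in control and 57.3, 54.7 and 52.4 CPM after IL-1β. Its log2 fold change was 1.54 (standard error 0.11, edgeR adjusted p = 1.3e-10), and the groups were far apart. Ptpn2, a phosphatase of JAK and STAT proteins, rose by 0.92 on the log2 scale, Adam17, the protease that sheds the GH receptor from the cell surface, by 0.50, and Stat3 by 0.37, at edgeR adjusted p of 4.7e-06, 5.3e-05 and 0.00047. Socs1, another JAK inhibitor, rose from 1.12 ± 0.99 CPM to 4.39 ± 1.84 CPM (SD, n = 3 per group; log2 fold change 1.95, edgeR adjusted p = 0.0074), but had an adjusted p of 0.111 without IL-1β replicate 2. Jak2, named after its values were seen as the receptor's own kinase, had a log2 fold change of 0.27 (edgeR adjusted p = 0.31), and Stat5a, named likewise as the paralog of Stat5b, 0.11 (0.75).

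**Figure D3:**
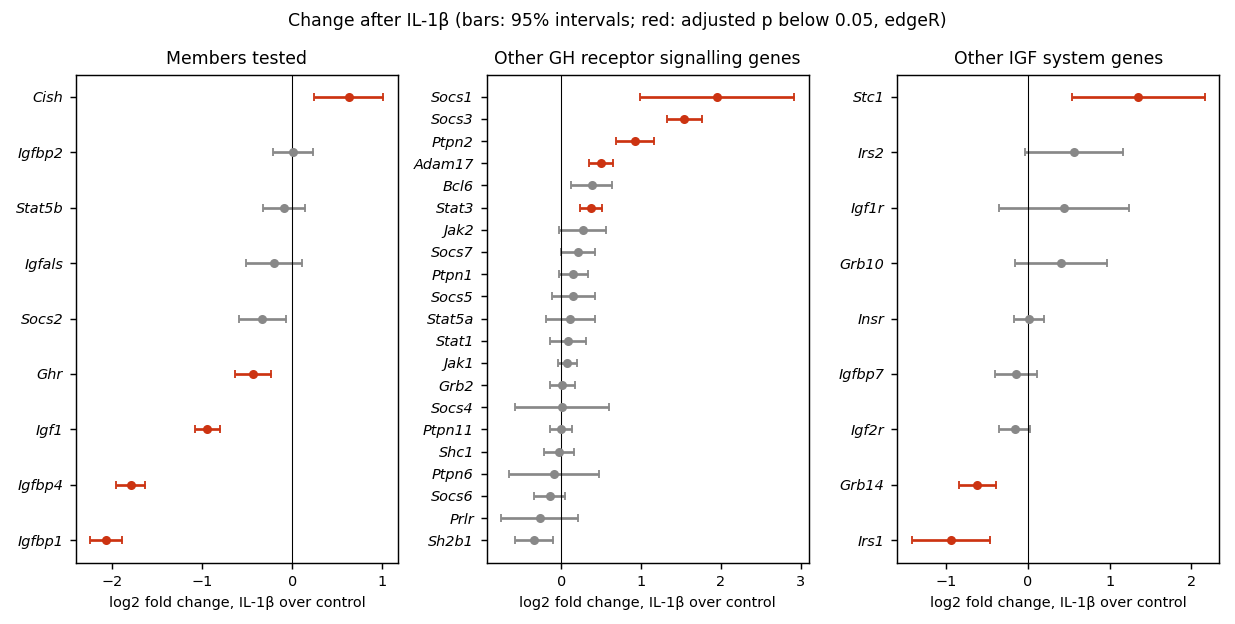
Log2 fold change, IL-1β over control (x axis), of the 9 members tested (left), 21 other genes of GH receptor signalling (middle) and 9 other genes of the IGF system (right), each panel with its own x scale; bars are 95% intervals, and red marks an adjusted p below 0.05. Igfbp1, Igfbp4, Igf1 and Ghr lie left of 0 and Cish right of it, whereas the genes in red in the middle panel all lie right of 0.

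Of 16 other genes of the IGF system, 9 were tested, with 1 higher, 2 lower and 6 not past the test, and a median of 0.014. The shares of all genes tested were 6.97% higher and 6.44% lower. Irs1, the adaptor that couples insulin and IGF1 receptors to PI3-kinase, fell from 8.06 ± 0.50 CPM to 4.18 ± 0.31 CPM (SD, n = 3 per group; log2 fold change -0.94, edgeR adjusted p = 0.0084). Grb14, an inhibitor of the insulin receptor, fell by 0.62 on the log2 scale (edgeR adjusted p = 0.0004). Stc1, which encodes a stanniocalcin, a family that inhibits the proteases acting on IGF-binding proteins, rose from 0.94, 1.70 and 1.01 CPM to 2.78, 3.55 and 3.07 CPM (log2 fold change 1.35, edgeR adjusted p = 0.029). These are 10 to 37 counts a library, and the adjusted p of Stc1 was 0.0572 with DESeq2, 0.0284 without control replicate 2 and 0.0626 to 0.134 without any other single sample. The IGF1 receptor, Igf1r, named after its values were seen, had 1.89 ± 0.74 CPM in control and 2.58 ± 0.38 CPM after IL-1β (SD, n = 3 per group; edgeR adjusted p = 0.59).

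Among liver genes that depend on the male pattern of GH release, 13 of 16 were tested. Of these, 2 rose, 6 fell and 5 did not pass, with a median log2 fold change of -0.314. Over all genes tested 6.97% rose and 6.44% fell, and of 9 hepatocyte markers tested 7 fell, with a median of -0.36. Whether the decrease is particular to GH-dependent genes was not tested. Cyp7b1, an oxysterol hydroxylase, rose from 38.3 ± 6.64 CPM to 68.7 ± 2.03 CPM (SD, n = 3 per group; log2 fold change 0.84, edgeR adjusted p = 2.3e-06). The major urinary protein genes Mup1, Mup20 and Mup3 fell by 0.38, 0.32 and 0.31 on the log2 scale (edgeR adjusted p of 2.7e-05, 0.00025 and 0.00031). They belong to a gene family that holds near-identical copies. Reads can be split between such copies, so the single values of Mup1, Mup20 and Mup3 are uncertain. They may thus not count as separate genes among those that fell. Of 12 female-biased GH-dependent genes, 2 were tested and 0 passed, and 4 had no count in any library. Of 13 FOXO1- and insulin-responsive genes, which share the control of Igfbp1, 9 were tested, with 1 higher and 0 lower and a median of 0.239. The one that passed, Trib1, which encodes a pseudokinase, had a log2 fold change of 0.25 (edgeR adjusted p = 0.048). Its adjusted p was 0.0826 with upper-quartile scaling, 0.151 with total-count scaling and 0.059 with DESeq2, and without control replicate 1 the log2 fold change was 0.15 (adjusted p = 0.223). With each sample omitted in turn, 1 of 6 fits passed.

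Markers of other liver cells bear on Igfbp3, Igf1 and Igfbp4, which such cells can express. The shares of all genes tested to set beside the counts of each marker list were 6.97% higher and 6.44% lower. Of 12 Kupffer cell and macrophage markers 9 were tested and 0 passed, and their summed level was 211.3 to 241.8 CPM in control and 215.3 to 244.4 CPM after IL-1β. The median log2 fold change of the 9 was 0.313. Clec4f, Timd4 and Vsig4, which were not tested, had at most 27, 1 and 7 counts in any library. Cd68 and Cd5l, which hold most of that sum, had -0.06 and -0.21, and the other tested macrophage markers were above 0, up to 0.75 for C1qa (edgeR adjusted p = 0.21), named after its value was seen. Of 10 endothelial markers 8 were tested, of which Lyve1 rose and Clec4g and Kdr fell, with Eng at 0.02. Lyve1 had a log2 fold change of 0.45, with an adjusted p of 0.059 with DESeq2 and at most 0.137 with 1 sample removed. Clec4g (-2.87, edgeR adjusted p = 1.9e-05) had 3, 7 and 14 counts after IL-1β, the lowest at the floor of 3 counts. Kdr (-1.49, edgeR adjusted p = 0.0051) had 17, 19 and 13 counts after IL-1β. The endothelial sum was 78.92 to 88.47 CPM in control and 78.2 to 85.24 CPM after IL-1β. Of 10 stellate cell markers 2 were tested, Dcn (0.14) and Col3a1 (0.52), and 0 passed, with sums of 21.26 to 25.08 CPM and 22.34 to 27.89 CPM. Of 6 cholangiocyte markers 2 were tested, and Spp1 fell (-1.20) while Sox9 had 0.21 (edgeR adjusted p = 0.052). The sum of the 6 was 315.8 to 329.5 CPM in control and 236.5 to 239.7 CPM after IL-1β. Krt19, Krt7, Epcam and Cftr had at most 6 counts in any library. The lower sum thus reflects Spp1, with means of 190 CPM in control and 82.7 CPM after IL-1β, and not the whole list. Sox9, the other abundant marker, had means of 134 and 155 CPM. The part of these cells in the changes of the members was not tested.

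**Figure D4:**
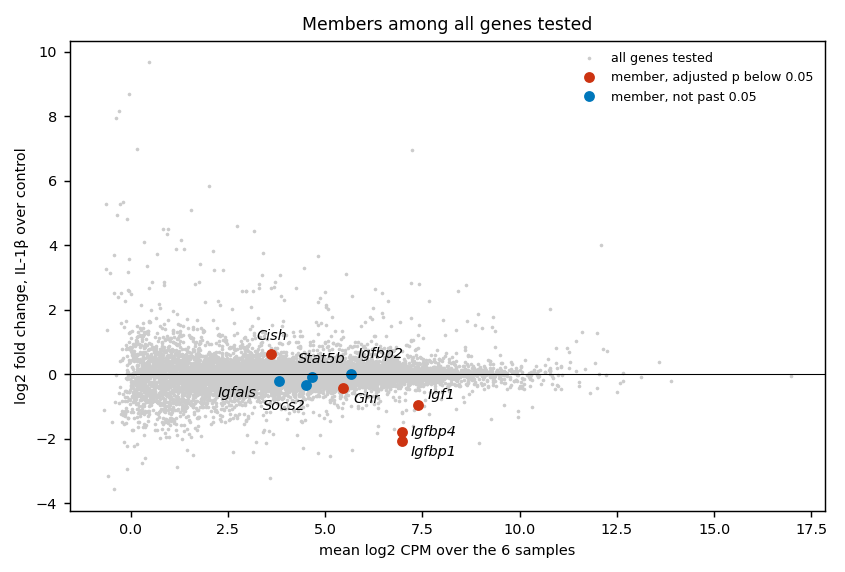
Log2 fold change, IL-1β over control (y axis), against mean log2 CPM over the 6 samples (x axis) for the 11657 genes tested (grey) and the 9 members tested (red where the adjusted p was below 0.05, blue otherwise). Igfbp1 and Igfbp4 lie at the lower edge of the cloud with ranks 23 and 39 among decreases, Igf1 is next at rank 300, and Igfbp2 and Stat5b lie inside it near 0.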

How the data were processed

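RNA of 3 control and 3 IL-1β-treated cultures of primary mouse hepatocytes was sequenced with the QuantSeq 3′ mRNA kit as single-end reads. Groups and replicate numbers were taken from the sample titles. The authors aligned reads with Bowtie2 (mm10/GRCm38) and deposited raw counts per gene, and also log2 values of TMM-normalized CPM plus 1. Tool versions, the counting tool and what was done with multi-matching reads are not given in the sources used here. The table also holds group averages, a fold change and a p-value made by the authors, which were not used.

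The deposited counts were fitted in edgeR 4.0.16 under R 4.3.3 (filterByExpr, TMM, quasi-likelihood test), p-values were adjusted by Benjamini-Hochberg over all 11657 genes tested, and 0.05 was the threshold. Standard errors were derived from the log2 fold change and the square root of F, and intervals are 1.96 standard errors on each side. On simulated data for this comparison with 11517 genes, 85.9% of genes changed by 1 on the log2 scale and 44.3% of those changed by 0.5 were called. Unchanged genes made up 3.03% of calls. Only 99 and 97 genes were changed there, against 1563 called in the real data, so these rates may not carry over. Exact permutation tests used scipy 1.17.1. Replicates of a group differed by more than counting noise, with a chi-square per degree of freedom of 4.14 or more. Same-numbered control and IL-1β samples had correlations of 0.062, 0.0079 and 0.0038 between their deviations from group means, and they were not treated as pairs.

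The members and gene lists were chosen with earlier results of these data known. Named genes are all members, the tested list genes with the smallest adjusted p (at most 4 a list, or all where 5 or fewer passed), the 2 most abundant markers of each other cell type with any that passed, and the 3 genes most correlated with Igf1 and with Igfbp1. Jak2, Stat5a and Igf1r were added after values were seen. Lists were described by counts and medians, without a test of the list. Alternatives were DESeq2 1.42.0, scaling by total counts or upper quartile, keeping every gene with a count or those with 10 counts or more in all samples, limma 3.58.1 on log2(CPM + 1) and on the deposited log2 values, a replicate block, omission of each sample in turn and, added after the data were seen, leaving out Rn45s. Promoter sequences are from RefSeq (GRCm38.p6).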

Additional observations from a re-analysis of the deposited data

How the results depend on the processing

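The number of members lower was 4 under every alternative, and the number higher, 1, became 0 with total-count scaling and with DESeq2, and 0 to 1 with each sample left out, because Cish crossed the threshold. For Cish the log2 fold change was 0.571 (adjusted p = 0.0504) with total-count scaling, 0.627 (0.0656) with DESeq2 and 0.484 to 0.868 with each sample left out. Igfbp2, near 0, changed sign to -0.022 with upper-quartile and -0.0453 with total-count scaling and ranged from -0.0791 to 0.146 with each sample left out. With each sample left out, Igfbp1 stayed between -2.17 and -2.01, Igfbp4 between -1.85 and -1.72, Igf1 between -0.963 and -0.92 and Ghr between -0.485 and -0.385, all with an adjusted p below 0.05. Genes called over the whole table numbered 1563, and 1131 to 1728 under the alternatives. Total-count scaling moved the share of calls that were higher from 52.0% to 39.6% and upper-quartile scaling to 45.3%. Eng reversed to -0.013 with upper-quartile and -0.0388 with total-count scaling, and ranged from -0.0478 to 0.119 with each sample left out. Of the other values of named genes that are no members, 6 became weaker and 5 stronger with all samples kept, and 15 weaker and 1 stronger with a sample left out.

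Under the replicate block, log2 fold changes were -2.06 for Igfbp1, -1.80 for Igfbp4, -0.944 for Igf1, -0.44 for Ghr and 0.638 for Cish, 1671 genes were called, and no call of a member changed. Depth limits Igfbp3, Socs1, Stc1, Clec4g and Kdr.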
